A study of Mus musculus with 6 samples.

Results

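Desmosomes are spot-like junctions that tie the keratin filaments of neighbouring epithelial cells together. Their adhesive core is made of desmosomal cadherins, the desmogleins and desmocollins, whose tails bind the armadillo proteins plakoglobin and the plakophilins. Plakoglobin and the plakophilins in turn hold desmoplakin, a plakin that anchors the filaments, while periplakin and envoplakin are related plakins best known from stratified epithelia. In the kidney these junctions are found in the collecting duct and in the urothelium, among other epithelia.

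The transcripts of 10 such genes, Dsg2, Dsc2, Jup, Pkp1, Pkp2, Pkp3, Dsp, Ppl, Evpl and Perp, were followed in ureteric epithelium, the part of the mouse kidney that branches and forms the collecting ducts. They were taken by symbol, and all 10 were present among 21456 symbols with values in the deposited table. Kidneys were of the CFW strain at stage E16.5, and cells were distinguished by a red reporter of Wnt11, a gene of the growing tips, and a green reporter of Hoxb7, a gene of the whole ureteric tree. The tip group (Wnt11RFP+;Hoxb7GFP+) and the stalk group (Wnt11RFP-;Hoxb7GFP+) had 3 mRNA libraries each, and no treatment was recorded for either. Both groups therefore carried the Hoxb7 reporter, and the stalk group was defined by the lack of the tip reporter and could hold several cell types. Whether libraries of a group came from different animals was not stated. P-values therefore speak to the spread among these libraries, and that spread may be technical.

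Levels are RPKM, reads scaled to transcript length and library size, summed over the rows of a symbol. RPKM is scaled to length, so levels can be set side by side between genes. The depth of the libraries was unknown, so no counting interval is given. Means are followed by ± SD over n = 3 libraries. A gene was tested if its mean over all 6 libraries reached 1 RPKM, which 12532 genes did. The test was limma on log2(RPKM + 1), adjusted by Benjamini-Hochberg over all of them, with a threshold of 0.05. A log2 fold change is tip minus stalk on this scale, so a negative value is a higher level in stalk, and the pseudocount understates the change of low genes.

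Among 9 of the 10 genes that could be tested, stalk was higher for 7: Perp, Ppl, Jup, Evpl, Dsp, Dsc2 and, by a smaller margin, Pkp3. Dsg2 and Pkp2 did not pass the test, and Pkp1 was too low to be tested. No member was higher in tip by limma, and 0 had an unadjusted p under 0.05 in that direction. Over all tested genes 48.6% were called, 22.5% as higher in stalk and 26.1% as higher in tip. Of the members, 6 of the 9 tested were called and at least 1 log2 unit higher in stalk, where 8.87% of all tested genes were. In 8 of the 9 tested members every stalk library lay above every tip library, where 26.5% of all tested genes showed this. The median log2 fold change of the 9 members was -1.48, against 0.05 over all tested genes. The members were chosen with earlier results of these data known, so these counts describe them and single nothing out.

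**Figure D1:**
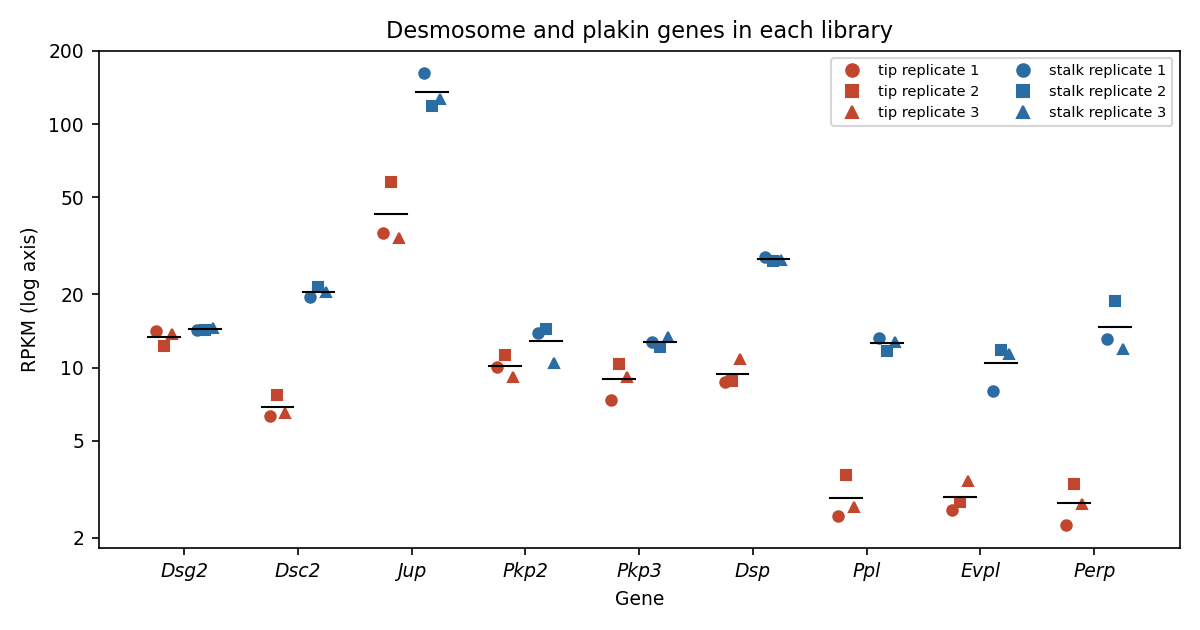
RPKM on a log axis of 9 desmosome and plakin genes in each tip (red) and stalk (blue) library, with the marker shape giving the replicate and the black line the group mean. Pkp1, listed at 0 in 2 tip libraries, is not drawn. The stalk points lie clear of the tip points for Dsc2, Jup, Dsp, Ppl, Evpl and Perp, lie just above them for Dsg2 and Pkp3, and overlap them for Pkp2.

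The members covered a wide range of levels and were ordered differently in the 2 groups. In tip, Jup stood at the top with a mean of 42.6 RPKM, followed by Dsg2 (13.4 RPKM), Pkp2 (10.2 RPKM), Dsp (9.44 RPKM), Pkp3 (8.96 RPKM) and Dsc2 (6.86 RPKM). Evpl (2.95 RPKM), Ppl (2.92 RPKM) and Perp (2.78 RPKM) came next. Pkp2 and Dsp, Dsp and Pkp3, and the neighbours among Evpl, Ppl and Perp changed places from one tip library to another. In stalk, Jup (136 RPKM), Dsp (27.9 RPKM) and Dsc2 (20.5 RPKM) led in the same order in all 3 libraries. Perp (14.6 RPKM), Dsg2 (14.4 RPKM), Pkp2 (12.9 RPKM), Pkp3 (12.7 RPKM), Ppl (12.6 RPKM) and Evpl (10.4 RPKM) followed, and no neighbouring pair of these kept 1 order in every stalk library. Pkp1 was last in both groups. Thus Dsg2, a cadherin above Dsc2 and Dsp in every tip library, stood below both in every stalk library.

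The leading members of the stalk order, Jup and Dsp, were the 2 members for which an upstream sequence could be matched by symbol in the RefSeq promoter table (build GRCm38.p6, the same assembly as mm10). The 250 bases before each RefSeq start site are shown 5′ to 3′ on the strand of the gene. These 2 genes are shown because no other member was matched, and both were among the 7 members higher in stalk. For Jup they are chr11:100397791-100398040 on the minus strand, and for Dsp chr13:38151044-38151293 on the plus strand. Capitals mark matches to the GC box GGGCGG on either strand.
Jup: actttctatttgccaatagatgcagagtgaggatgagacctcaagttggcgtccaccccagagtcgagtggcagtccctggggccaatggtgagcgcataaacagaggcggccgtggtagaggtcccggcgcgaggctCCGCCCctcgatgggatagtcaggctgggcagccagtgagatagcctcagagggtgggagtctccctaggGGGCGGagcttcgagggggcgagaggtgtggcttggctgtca
Dsp: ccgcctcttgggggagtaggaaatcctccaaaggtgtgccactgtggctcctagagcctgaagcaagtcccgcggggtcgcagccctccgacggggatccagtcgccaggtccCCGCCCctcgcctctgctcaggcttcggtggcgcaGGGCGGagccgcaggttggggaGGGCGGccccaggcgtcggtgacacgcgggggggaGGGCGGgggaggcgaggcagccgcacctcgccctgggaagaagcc

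The Jup window held 2 GC boxes, with first bases at -112 and -42 counted from the base before the start site (-1), and the Dsp window held 4, at -137, -102, -80 and -45. Of 32817 promoter windows of this length, 32.7% held at least 1 GC box. The windows had a GC content of 62% for Jup and 72.4% for Dsp, against a median of 52.4% over all windows. On either strand, neither window held the grainyhead motif AACCGGTT (in 0.116% of all windows), the AP-1 motif TGANTCA (6.75%), the E-box CAGGTG (17.2%) or the TATA box TATAAA (12.4%). Only the GC box was matched, so overlap between motifs could not occur. These matches describe letters in the windows and say nothing of binding.

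The cadherins came as 1 gene that differed and 1 that did not pass the test. Dsc2, which encodes desmocollin 2 (chromosome 18, 20030633 to 20059554, minus strand, mm10, GENCODE M21), stood at 6.35, 7.73 and 6.50 RPKM in tip replicates 1 to 3. In stalk replicates 1 to 3 it stood at 19.6, 21.5 and 20.5 RPKM. The groups lay far apart, with the highest tip library 11.8 RPKM below the lowest stalk library. Dsc2 was higher in stalk, at 20.5 ± 0.952 against 6.86 ± 0.759 RPKM, a ratio of 2.99 (log2 fold change -1.45, SE 0.11, limma adjusted p = 3.20e-05).

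Dsg2 encodes desmoglein 2, the desmoglein of simple epithelia, and lies on the same chromosome (18, 20558074 to 20604521, plus strand). It stood at 14.1, 12.3 and 13.7 RPKM in tip and at 14.3, 14.3 and 14.6 RPKM in stalk. All stalk libraries lay above all tip libraries, but only by 0.151 RPKM at the nearest. The difference did not pass the test (log2 fold change -0.10, SE 0.10, limma adjusted p = 0.443), with a 95% interval from -0.34 to 0.13.

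The balance between the cadherins was therefore compared within libraries, as a ratio that no scaling of a library can move. The ratio of Dsg2 to Dsc2 was 2.23, 1.59 and 2.10 in tip replicates 1 to 3 and 0.731, 0.665 and 0.712 in stalk replicates 1 to 3. Dsg2 exceeded Dsc2 in every tip library and fell short of it in every stalk library. On the log2 scale the ratio was 0.97 ± 0.26 in tip and -0.51 ± 0.07 in stalk (exact two-sided permutation p = 0.1, adjusted p = 0.18 over 9 within-library quantities). With 3 against 3 libraries 0.1 is the smallest p such a test can give.

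The other desmosomal cadherins contributed almost nothing in either group. Dsc3 was at most 0.107 RPKM in any library, Dsc1 at most 0.0203 RPKM, Dsg1c at most 0.0285 RPKM and Dsg4 at most 0.0114 RPKM, and none was tested. Dsg1a, Dsg1b and Dsg3 were not analysed here. Dsg2 and Dsc2 were thus the only 2 of the desmosomal cadherins examined to reach 1 RPKM in a library.

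Jup encodes plakoglobin, which binds desmosomal cadherins and, like its relative beta-catenin, also classical cadherins (chromosome 11, 100368958 to 100397763, minus strand). It stood at 35.8, 58.0 and 33.9 RPKM in tip and at 161, 119 and 127 RPKM in stalk. Tip replicate 2 was the highest tip library and stalk replicate 1 the highest stalk library, and the groups stayed 60.8 RPKM apart at their nearest. Jup was higher in stalk, at 136 ± 22.7 against 42.6 ± 13.4 RPKM, a ratio of 3.19 (log2 fold change -1.68, SE 0.21, limma adjusted p = 0.000306). Of all tested genes, 88.2% stood at or below its level in tip and 97.2% in stalk. The relative Ctnnb1, beta-catenin, was at 324 ± 4.59 RPKM in tip against 321 ± 13.3 RPKM in stalk and did not pass the test (log2 fold change 0.01, limma adjusted p = 0.911).

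Plakophilins are armadillo proteins that cluster desmosomal cadherins and bind desmoplakin. Pkp2 (chromosome 16, 16213318 to 16272712, plus strand), the plakophilin with the widest distribution among desmosomes, stood at 10.1, 11.2 and 9.15 RPKM in tip and at 13.8, 14.4 and 10.5 RPKM in stalk. The groups overlapped, since stalk replicate 3 lay below tip replicate 2. The difference did not pass the test (log2 fold change -0.31, SE 0.15, limma adjusted p = 0.112), with a 95% interval from -0.64 to 0.02. Without stalk replicate 3 it was called, with a log2 fold change of -0.44 (limma adjusted p = 0.0341, the lowest of its alternatives, which reached 0.289).

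Pkp3 (chromosome 7, 141078218 to 141090510, plus strand), known from simple and stratified epithelia alike, stood at 7.36, 10.3 and 9.19 RPKM in tip and at 12.8, 12.1 and 13.3 RPKM in stalk. The groups did not overlap, with a gap of 1.78 RPKM. Pkp3 was higher in stalk, at 12.7 ± 0.615 against 8.96 ± 1.49 RPKM, a ratio of 1.42 (log2 fold change -0.47, SE 0.14, limma adjusted p = 0.0201). The call was lost without tip replicate 1 (adjusted p = 0.0725) and without stalk replicate 3 (adjusted p = 0.0650), in a range of limma adjusted p over its alternatives from 0.00979 to 0.0725.

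Pkp1 (chromosome 1, 135871395 to 135919207, minus strand), best known from the upper layers of stratified epithelia, was listed at 0 in tip replicates 1 and 3 and at 0.0127 RPKM in tip replicate 2. In stalk it stood at 0.339, 0.401 and 0.276 RPKM. The stalk libraries were the higher ones, but the mean of 0.171 RPKM over all 6 libraries was below the minimum for testing. With no minimum, and so many more low genes in the fit, it was called (log2 fold change -0.41, limma adjusted p = 0.00169).

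Pkp4, a more distant plakophilin that is found at adherens junctions as well, was set beside these. It stood at 30.9, 32.6 and 32.6 RPKM in tip and at 34.0, 35.4 and 36.9 RPKM in stalk, and its difference did not pass the test (log2 fold change -0.14, limma adjusted p = 0.214). It made up 62.7 ± 2.18% of the summed RPKM of Pkp1 to Pkp4 in tip and 57.7 ± 2.47% in stalk, with overlapping groups (exact two-sided permutation p = 0.2). Pkp2 made up 22.7, 23.1 and 17.2% in stalk against a mean of 19.9 ± 1.62% in tip, also overlapping (exact permutation p = 0.6).

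The share of Pkp3 was 15.2, 19.1 and 18.1% in tip and 20.9, 19.4 and 21.9% in stalk. These groups did not overlap, though tip replicate 2 and stalk replicate 2 lay close (exact permutation p = 0.1, adjusted p = 0.18 over the same 9 quantities). The share of Pkp1 was at most 0.0234% in tip and at most 0.644% in stalk. In all 6 libraries Pkp4 held the majority, and Pkp1 the least.

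**Figure D2:**
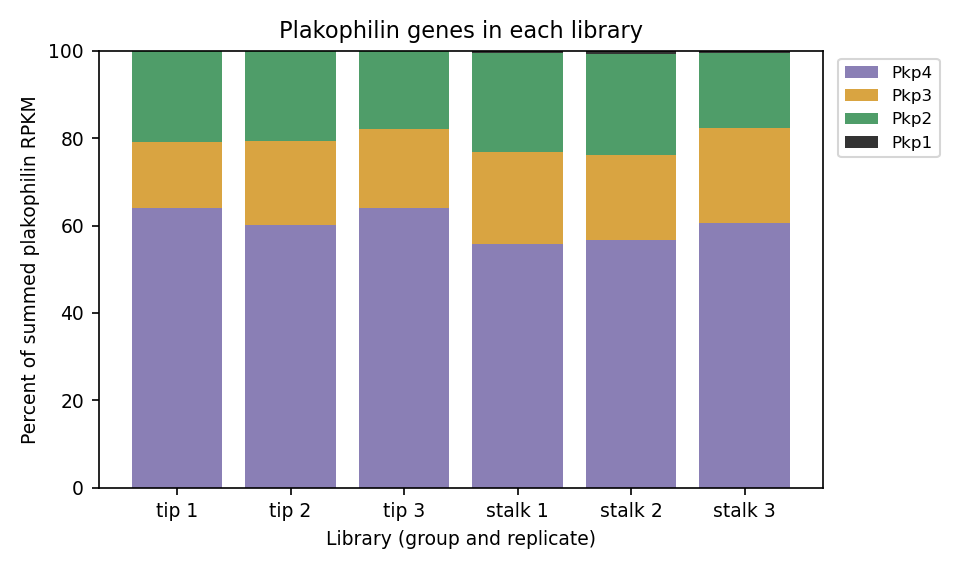
Percent of the summed RPKM of 4 plakophilin genes that came from each, per library (bars from 0 to 100 percent). Pkp4 holds between 55.8 and 64.0% in every library, and the share of Pkp3 lies between 19.4 and 21.9% in stalk against 15.2 to 19.1% in tip.

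Dsp encodes desmoplakin, which links the junction to keratin filaments (chromosome 13, 38151294 to 38198577, plus strand). It stood at 8.69, 8.82 and 10.8 RPKM in tip and at 28.5, 27.4 and 27.7 RPKM in stalk. The stalk libraries were close to each other and 16.7 RPKM or more above every tip library. Dsp was higher in stalk, at 27.9 ± 0.562 against 9.44 ± 1.18 RPKM, a ratio of 2.96 (log2 fold change -1.48, SE 0.11, limma adjusted p = 2.84e-05). Of all tested genes, 47.0% stood at or below its level in tip and 80.1% in stalk.

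The deposited table held 3 rows for Dsp, without transcript names, of which 2 carried its signal. The higher row stood at 6.49 ± 0.562 RPKM in tip against 14.7 ± 1.02 RPKM in stalk, a ratio of 2.27. The second row stood at 2.95 ± 0.861 RPKM in tip against 13.2 ± 1.58 RPKM in stalk, a ratio of 4.48. The second row made up 32.6, 24.4 and 35.8% of Dsp in tip replicates 1 to 3 and 52.1, 42.8 and 46.9% in stalk replicates 1 to 3. These groups did not overlap (difference of -16.3 percentage points, exact two-sided permutation p = 0.1, the smallest possible). The quantity was chosen after its values were seen and is outside the 9. Desmoplakin is known to be made in a long and a short form, but which transcript a row stands for was not given.

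In the 2 main rows of Dsc2 no such shift was seen. The higher row had a ratio of stalk to tip of 3.10 and the second a ratio of 3.09. For Jup, Pkp2, Pkp3 and Dsg2 a single row held most of the signal, at 91.0 to 98.5%, 98.3 to 100%, 83.5 to 99.9% and 92.7 to 99.7% of the gene over the 6 libraries. Ppl, Evpl and Perp had 1 row each.

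Desmoplakin was then compared with its partners within libraries. The ratio of Dsp to the sum of Dsg2 and Dsc2 was 0.425, 0.441 and 0.535 in tip and 0.843, 0.768 and 0.791 in stalk. Every stalk library was above every tip library, with a log2 ratio of -1.11 ± 0.18 in tip and -0.32 ± 0.07 in stalk (exact two-sided permutation p = 0.1, adjusted p = 0.18). The ratio of summed Pkp1, Pkp2 and Pkp3 to Dsp was 2.01, 2.44 and 1.70 in tip and 0.944, 0.980 and 0.868 in stalk. These plakophilins together exceeded Dsp in every tip library and lay just below it in every stalk library (exact permutation p = 0.1, adjusted p = 0.18).

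The ratio of Dsp to Jup was 0.243, 0.152 and 0.318 in tip and 0.177, 0.231 and 0.219 in stalk. The groups overlapped, and the log2 difference of 0.13 did not stand out from the spread (exact permutation p = 0.8). Tip replicates 2 and 3 were the lowest and highest of all 6 libraries, and without tip replicate 3 the difference turned to -0.11. Jup and Dsp were both about 3 times as high in stalk, and their ratio was not resolved at this sample size.

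**Figure D3:**
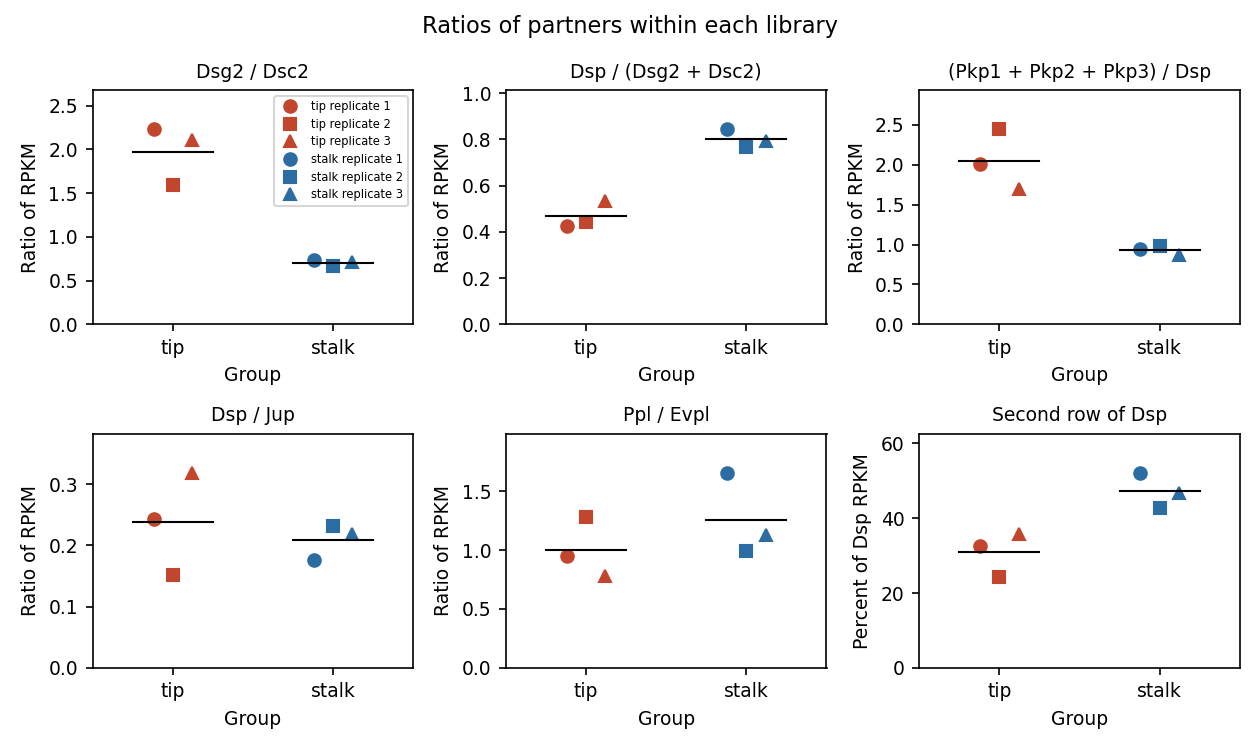
Ratios of RPKM between desmosome partners, and the percent of Dsp RPKM in its second row, in each library (red tip, blue stalk, marker shape by replicate, black line the group mean, axes from 0). Groups are apart for Dsg2 / Dsc2, Dsp / (Dsg2 + Dsc2), (Pkp1 + Pkp2 + Pkp3) / Dsp and the second row of Dsp, and overlap for Dsp / Jup and Ppl / Evpl.

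Ppl encodes periplakin, which pairs with envoplakin and binds intermediate filaments (chromosome 16, 5086291 to 5132421, minus strand). It stood at 2.47, 3.61 and 2.68 RPKM in tip and at 13.3, 11.7 and 12.8 RPKM in stalk. The gap between the groups, 8.12 RPKM, was wider than the spread of either. Ppl was higher in stalk, at 12.6 ± 0.785 against 2.92 ± 0.609 RPKM, a ratio of 4.31 (log2 fold change -1.80, SE 0.14, limma adjusted p = 3.58e-05).

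Evpl encodes envoplakin (chromosome 11, 116220559 to 116238077, minus strand). It stood at 2.61, 2.82 and 3.44 RPKM in tip and at 8.02, 11.8 and 11.3 RPKM in stalk. Stalk replicate 1 was the low one of its group and still stood 4.59 RPKM above the highest tip library. Evpl was higher in stalk, at 10.4 ± 2.08 against 2.95 ± 0.431 RPKM, a ratio of 3.52 (log2 fold change -1.52, SE 0.17, limma adjusted p = 0.000191).

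The ratio of Ppl to Evpl was 0.947, 1.28 and 0.779 in tip and 1.65, 0.990 and 1.13 in stalk. The groups overlapped (log2 difference of -0.32, exact two-sided permutation p = 0.4), and the partners stood at levels within a factor of 1.65 of each other in all 6 libraries.

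Perp encodes a tetraspan membrane protein of desmosomes that is also known as a target of p53 and p63 (chromosome 10, 18845020 to 18857073, plus strand). It stood at 2.25, 3.33 and 2.74 RPKM in tip and at 13.2, 18.8 and 11.9 RPKM in stalk. Stalk replicate 2 was the highest, and the lowest stalk library stood 8.56 RPKM above the highest tip library. Perp showed the widest change of the 9 tested members, at 14.6 ± 3.69 against 2.78 ± 0.540 RPKM, a ratio of 5.27 (log2 fold change -2.03, SE 0.19, limma adjusted p = 7.32e-05).

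Of its known regulators, Trp53 was higher in tip (1.21 on the log2 scale, limma adjusted p = 0.000333), where it had 66.1 ± 12.5 RPKM, than in stalk, where it had 27.8 ± 3.61 RPKM. Trp63, which encodes p63, was not called (0.27, limma adjusted p = 0.481), at 2.36 ± 0.261 RPKM in tip against 1.95 ± 1.14 RPKM in stalk. Among other tested genes, the 3 closest to Perp by the mean absolute difference of centred log2(RPKM + 1) over the 6 libraries were Phactr1 (0.11), Fcgrt (0.12) and Optn (0.12). Phactr1, which encodes a regulator of actin and protein phosphatase 1, had 5.51 ± 0.628 RPKM in tip against 23.5 ± 4.25 RPKM in stalk. Fcgrt, the neonatal Fc receptor gene, stood at 2.43 ± 0.627 and 11.5 ± 3.10 RPKM, and Optn, the gene of the autophagy receptor optineurin, at 0.872 ± 0.0487 and 6.85 ± 1.89 RPKM. Each was highest in stalk replicate 2, as Perp was, though they were chosen for nearness to Perp over these same libraries.

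**Figure D4:**
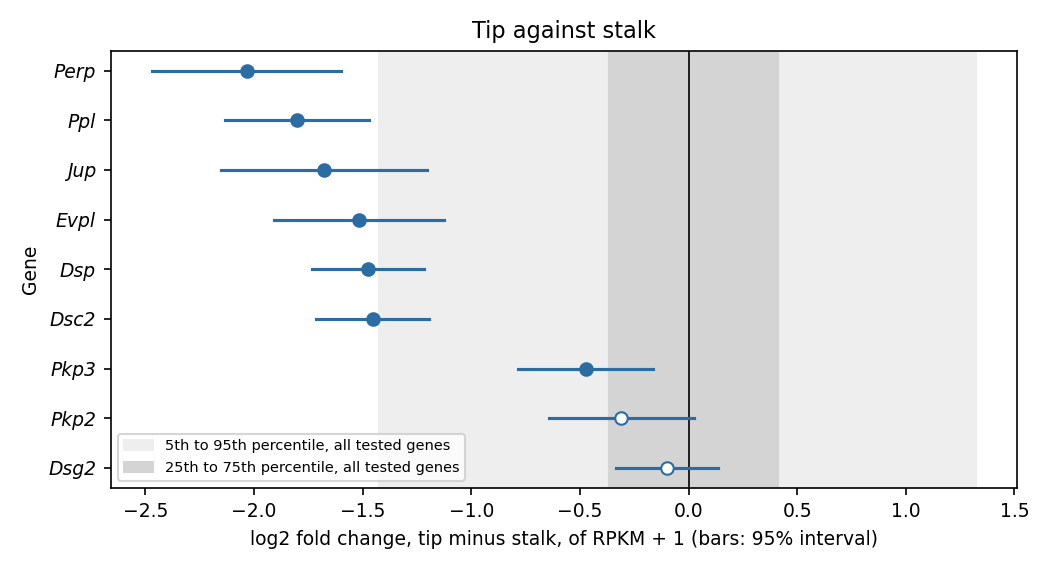
Log2 fold change (tip minus stalk, of RPKM + 1) of the 9 tested members with 95% limma intervals; filled points passed the adjusted threshold, and grey bands give the 25th to 75th and 5th to 95th percentiles of all tested genes. Perp, Ppl, Jup, Evpl, Dsp and Dsc2 lie beyond the 5th percentile of -1.43, while Dsg2 and Pkp2 lie within the inner band.

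Genes of the structures that desmosomes join or resemble were examined next, from 7 lists. The counts of each list stand beside 22.5% of all tested genes called as higher in stalk and 26.1% as higher in tip. The lists are short, and their counts describe the genes on them only. The other plakins, which link intermediate filaments to other parts of the cell, had 3 tested members, of which 2 were higher in stalk and 0 higher in tip by limma (0 toward tip at an unadjusted p under 0.05). Dst, the dystonin gene, stood at 5.14, 5.02 and 5.40 RPKM in tip and 12.8, 11.8 and 10.1 RPKM in stalk (log2 fold change -1.02, limma adjusted p = 0.000303). Plec, the plectin gene, stood at 4.55, 9.40 and 4.44 RPKM in tip and 17.2, 11.8 and 13.1 RPKM in stalk (-1.13, limma adjusted p = 0.00749). As with Jup, the highest libraries of Plec within their groups were tip replicate 2 and stalk replicate 1. With only the highest row of each gene, Plec was no longer called (limma adjusted p = 0.0564). Macf1 was not called (-0.21, limma adjusted p = 0.293) except in that setting (-0.54, limma adjusted p = 0.0295). Of the 4 other plakins listed 3 had values, and Eppk1 was not analysed here.

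Intermediate filament genes, the cargo of desmoplakin, had 8 tested members, of which 7 were higher in stalk and 1 was higher in tip. Their median log2 fold change was -2.29. Krt19 (-5.00), Krt7 (-3.13), Krt80 (-2.46) and Krt8 (-2.38) led toward stalk, and Vim, a filament gene mostly known from mesenchyme, was higher in stalk too (-1.38, limma adjusted p = 0.00256). Krt80 was again highest in tip replicate 2 (9.66 RPKM) and stalk replicate 1 (35.4 RPKM) within their groups. Krt23 was the gene higher in tip (0.96, limma adjusted p = 0.0235). This call was lost, leaving 0 genes of the list higher in tip, without tip replicate 1, tip replicate 3, stalk replicate 2 or stalk replicate 3. The keratins of basal stratified cells, Krt5 and Krt14, were listed at 0 in all 3 tip libraries and reached at most 2.44 and 2.06 RPKM in stalk. Krt17, another keratin gene of basal cells, lay the other way, at 0.300, 0.395 and 0.306 RPKM in tip and 0.135, 0.202 and 0.171 RPKM in stalk. Krt15, also known from basal cells, stood at 0, 0.139 and 0 RPKM in tip and 0.328, 0.725 and 1.21 RPKM in stalk. None of these basal keratin genes was tested. With no minimum mean Krt17 was called as higher in tip (0.19, limma adjusted p = 0.0283) and Krt15 as higher in stalk (-0.72, limma adjusted p = 0.0402).

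Adherens junction genes, whose junctions share plakoglobin with desmosomes, moved in both directions. There were 4 higher in stalk and 1 higher in tip among 10 tested, 5 were not called, and the median was -0.34. Calls in this list were thus about as common as over all tested genes, where 48.6% were called. Cdh1, the E-cadherin gene, was higher in stalk at 155 ± 31.7 against 110 ± 12.1 RPKM (-0.47, limma adjusted p = 0.0299), and Cdh16, the kidney cadherin gene, at 530.1 ± 20.8 against 159 ± 21.8 RPKM (-1.74, limma adjusted p = 1.68e-05). The cytoplasmic partners Ctnnd1 (-0.71) and Ctnna1 (-0.63) were also higher in stalk. Cdh3, the P-cadherin gene, was higher in tip, at 63.1 ± 4.24 against 13.9 ± 2.57 RPKM (2.12, limma adjusted p = 1.41e-05). The call of Cdh1 was lost, leaving 3 genes higher in stalk, without tip replicate 1, tip replicate 3 or stalk replicate 1, with the replicate block and with no minimum mean (limma adjusted p from 0.0514 to 0.101). Without tip replicate 2 the nectin gene Pvrl2 was called as well, which gave 5.

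Hemidesmosome genes, which anchor keratin to the basement membrane, had 5 tested members, with 2 higher in stalk, 1 higher in tip and 2 not called. Lamb3 (-2.38) and Cd151 (-0.56) were higher in stalk and the integrin gene Itga6 was higher in tip (1.26, limma adjusted p = 3.32e-05). With stalk replicate 1 left out, tip was higher for 2 of its genes. Col17a1, which marks mature hemidesmosomes of stratified epithelia, was at most 0.107 RPKM in any library. Of the genes of the cornified envelope, where periplakin and envoplakin act in the epidermis, 2 of 8 with values were tested. Sprr1a was higher in stalk (-5.72, limma adjusted p = 0.00113) and Lor higher in tip (0.97, limma adjusted p = 0.0177), and without stalk replicate 3 0 genes were higher in tip. Ivl, the involucrin gene, stood at 0.143 ± 0.148 RPKM in tip against 1.26 ± 0.518 RPKM in stalk and was not tested. Scel (0.0991 ± 0.0441 against 0.871 ± 0.238 RPKM), Flg (0.335 ± 0.0859 against 1.27 ± 0.874 RPKM) and Tgm1 (0.103 ± 0.0426 against 0.348 ± 0.156 RPKM) were also too low. In Ivl, Scel, Flg and Tgm1 every stalk library lay above every tip library. This did not hold for Tgm3 and Abca12, at most 0.0169 and 0.0237 RPKM in any library.

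Regulators of desmosomal genes or of junction assembly had 10 tested members, of which 5 were higher in stalk, 1 (Trp53) was higher in tip and 4 were not called. Klf5 (-2.25, limma adjusted p = 0.0184), Grhl3 (-1.87), Klf4 (-1.37) and Grhl1 (-1.26), all transcription factor genes of epithelial differentiation, were higher in stalk. Klf5 stood at 7.71, 48.1 and 9.10 RPKM in tip and 136, 53.3 and 61.4 RPKM in stalk, with its peaks in tip replicate 2 and stalk replicate 1. Its call was lost, leaving 4 regulators higher in stalk, without tip replicate 1, without tip replicate 3 and with no minimum mean (limma adjusted p from 0.0650 to 0.0833). Without tip replicate 2 the transcription factor gene Ovol1 was called too, which gave 6. Grhl2, at 23.0 ± 0.533 RPKM in tip against 23.6 ± 1.83 RPKM in stalk, was not called (-0.03, limma adjusted p = 0.793). Prkca, the gene of a protein kinase that acts on desmosome adhesion, was higher in stalk (-0.71, limma adjusted p = 0.00109). With stalk replicate 1 left out, tip was higher for 2 regulators. The genes of 4 repressors of epithelial genes lay under the minimum mean and were not tested. Zeb2 was at most 0.387 RPKM and Snai2 at most 0.790 RPKM in any library. Zeb1 stood at 0.0251, 0.0899 and 0.0927 RPKM in tip and 0.838, 0.253 and 1.20 RPKM in stalk. Its groups did not overlap and stalk was the higher. Snai1 stood at 0.823, 1.10 and 1.25 RPKM in tip and 0.316, 0.386 and 0.515 RPKM in stalk, so that its groups did not overlap and tip was the higher. With no minimum mean Snai1 was called as higher in tip (0.55, limma adjusted p = 0.0159), and Zeb1 was not called.

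**Figure D5:**
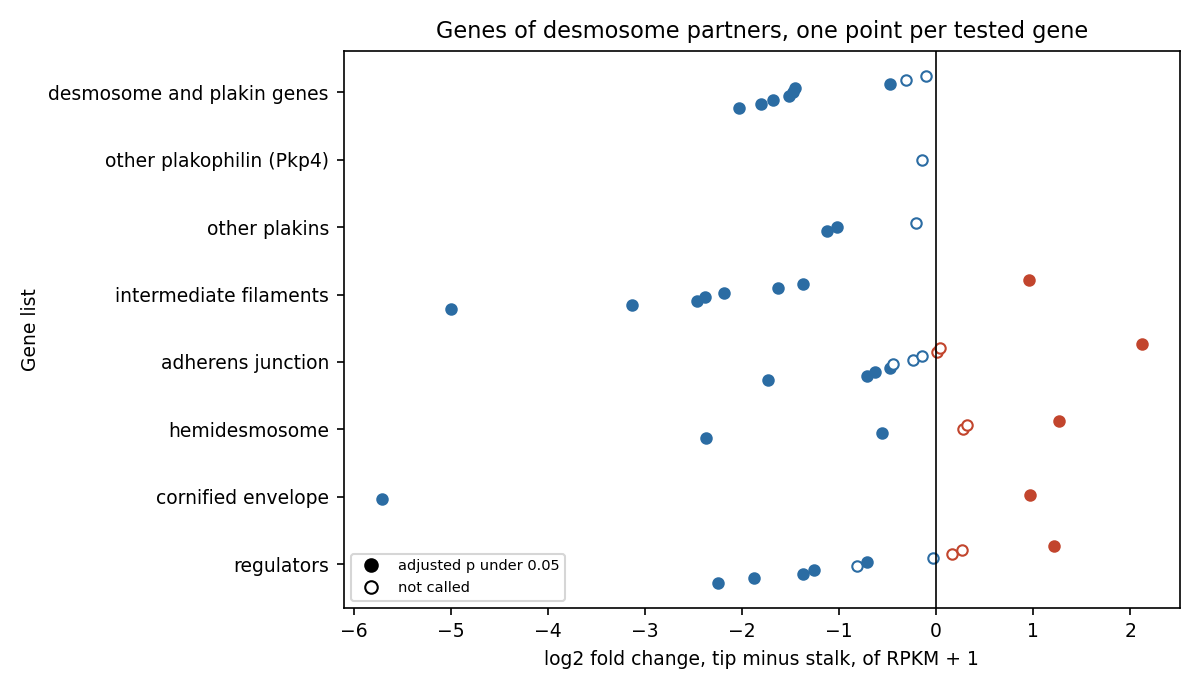
Log2 fold change (tip minus stalk, of RPKM + 1), 1 point for each tested gene, for the desmosome and plakin genes and the 7 lists around them; filled points passed the adjusted threshold (blue higher in stalk, red higher in tip). All 9 desmosome and plakin points lie left of 0, as do 7 of 8 intermediate filament genes, while the adherens junction, hemidesmosome and regulator genes spread to both sides.

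Markers of several cell types also differed between the sorts, some toward stalk and some toward tip. In bulk samples fewer cells of a type and less RNA per cell cannot be told apart. All 6 ureteric tip markers were higher in tip, summing to 1021 to 1800 RPKM in tip and 48.6 to 112 RPKM in stalk. All 6 principal cell markers (775 to 1128 RPKM in stalk, 17.4 to 37.5 RPKM in tip), 6 intercalated cell markers (274 to 458 and 2.18 to 4.17 RPKM) and 6 markers of superficial urothelium (208 to 443 and 0.437 to 1.71 RPKM) were higher in stalk. So were all 7 tested endothelial markers of 8 (41.9 to 73.6 and 6.01 to 8.84 RPKM) and 7 of 9 genes that respond to cell dissociation (3213 to 5242 and 2030 to 3102 RPKM). Of 5 markers of basal urothelium or epidermis, the 2 tested, Trp63 and Krt10, were not called, and the list summed to 4.81 to 10.6 RPKM in stalk and 4.91 to 5.38 RPKM in tip. Its other markers were too low to be tested. Krt5 (0.329, 2.44 and 0.242 RPKM) and Krt14 (0.219, 2.06 and 1.31 RPKM) were present in every stalk library and listed at 0 in tip. The groups of Krt1 overlapped. Stromal markers summed to 4.25 to 7.62 RPKM in stalk and 3.57 to 7.97 RPKM in tip, and both tested nephron progenitor markers were higher in tip (3.96 to 6.47 RPKM in tip, 1.32 to 2.19 RPKM in stalk). Of 5 tested ureteric lineage markers 2 were higher in stalk, and of 3 tested immune markers 1 was higher in each group. No marker with values in these lists was at 0 in all 6 libraries. The part of any of these cells or responses in the differences of the desmosome genes was not tested.

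On the second principal component, with 9.21% of the variance, 2 libraries lay far from the rest, tip replicate 2 at -20.5 and stalk replicate 1 at -25.0. The other 4 lay between 7.72 and 18.5. With both left out, a choice made after seeing the data, 7 members were higher in stalk and 0 higher in tip. Of all 12564 genes tested in that setting, 2917 were higher in stalk and 3103 higher in tip. Perp was then at -2.20, Jup at -1.79 and Dsp at -1.42.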

How the data were processed

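Messenger RNA from sorted tip and stalk cells was measured in 3 libraries per group. Per the labels' protocols, a Qiagen RNeasy micro kit gave the RNA and a Kapa stranded mRNA kit the libraries. The deposited values are RPKM computed by the authors, in 1 table of 93615 rows. Partek, TopHat2, bcl2fastq 2.17 and the build mm10 appear in the submitters' processing notes. How reads were assigned to rows, and on which annotation and strand, is not given in the sources used here. Rows with a question mark in all 6 columns (24545) were dropped, and RPKM was summed over the rows of each symbol. Log2(RPKM + 1) values were fitted in limma 3.58.1 (R 4.3.3) with group as the term and a variance trend, and the script was tested on simulated data. Within-library quantities were compared by exact two-sided permutation tests in scipy 1.17.1. Genes named were all 10 members, tested genes of the lists (up to 4 called with the largest change, or those highest in level, and others chosen after their values were seen, as were list genes too low to test) and the 3 genes nearest to Perp, the member with the largest called change (no member was called toward tip). The members and lists were chosen with earlier results of these data known. Coordinates come from GENCODE M21. Alternatives changed the pseudocount, filter, scaling, row choice, variance trend and block, or left out libraries.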

Additional observations from a re-analysis of the deposited data

How the results depend on the processing

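Across 14 alternatives, Perp, Ppl, Jup, Evpl, Dsp and Dsc2 were called as higher in stalk and Dsg2 was not called in any. Dsp ranged from -1.57 to -1.07, the latter with its highest row only. With 1 library left out, between 6 and 7 members were higher in stalk, as were 2256 to 2861 of all tested genes. Pkp3 then ranged from -0.57 to -0.35, Pkp2 from -0.44 to -0.23, and the log2 ratio of Dsp to Jup (tip minus stalk) from -0.11 to 0.42. Genes higher in tip then numbered 0 to 1 for intermediate filaments, 1 to 2 for hemidesmosomes, 0 to 1 for the cornified envelope and 1 to 2 for regulators. Without tip replicate 2 and stalk replicate 1 together, hemidesmosome genes higher in tip numbered 2. With a minimum mean of 5 RPKM fewer genes were tested, and 1 hemidesmosome gene and 3 regulators were higher in stalk and 0 cornified envelope genes higher in tip. With no minimum, Ivl (limma adjusted p = 0.0145) and Scel (limma adjusted p = 0.00452) were called, so 3 cornified envelope genes were higher in stalk. Lor was no longer called (limma adjusted p = 0.0643), which left 0 higher in tip. Snai1 was called besides Trp53, so 2 regulators were higher in tip. Why single calls moved was not tested. After scaling libraries by their median ratios, 3009 genes were higher in tip and 3143 in stalk, against 3274 and 2815, and 7 members were still higher in stalk. Whether the replicate numbers pair the samples was not stated. Deviations from the group mean correlated at -0.30, -0.34 and 0.09 for same-numbered libraries. They correlated at 0.56 for tip replicate 2 with stalk replicate 1, and at 0.40 for tip replicate 3 with stalk replicate 2. For tip replicate 1 with stalk replicate 3 the value was 0.33, and the remaining pairs lay between -0.44 and 0.05. Deviations within a group sum to 0, so these values cannot settle a pairing. With the replicate block, 7 members were higher in stalk (Pkp3 at an adjusted p of 0.0493, limma), 2716 genes were higher in tip and 2380 in stalk, and no member's call changed. Sequencing depth was unknown, so what it limits for low genes such as Pkp1 could not be set.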
